A study of Mus musculus with 6 samples.

Results

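SR proteins, hnRNP proteins and the cold-inducible proteins RBM3 and CIRBP bind RNA and shape how transcripts are spliced, exported and kept stable. The rows of the count table whose symbol starts with Srsf and a digit (11 rows) or with Hnrnp (18 rows) were analysed with Rbm3 and Cirbp, which made 31 of the 23412 rows. None of the 31 rows was at 0 in all libraries, and all 31 passed the filter on low counts, as did 18767 rows in all.

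RNA came from splenic germinal centre B cells, sorted as B220+, GL7+ and Fas+ on day 10 after mice were immunized with sheep red blood cells. Control mice had the genotype Cg1-cre(+/-), and DAF-TM mice the genotype Cg1-cre(+/-);DAF-TM(fl/fl). All mice therefore carried the Cg1-cre allele, which acts in B cells that transcribe the Cg1 constant region and not in germinal centre B cells alone. The control's transgene locus is written as DAF-Tg(+/+) in the labels. DAF-TM is a Cre-dependent transgene at Rosa26, and DAF, decay accelerating factor, is a brake on complement at the cell surface. The labels give neither age nor sex and do not state how many mice made up a library, so p-values refer to libraries. The fit took the spread between libraries largely from many genes together and not from each gene alone. The deposited column of DAF-TM replicate 3 was a copy of that of replicate 2, without a difference in any row, and the pair was counted as 1 sample, DAF-TM library 2. This left 3 control and 2 DAF-TM libraries.

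Levels below are CPM, counts scaled to the library size with TMM factors, given for control libraries 1 to 3 and DAF-TM libraries 1 and 2. Totals ran from 7257339 to 12783965 counts. Cd55, the mouse gene for decay accelerating factor, stood at 28.7, 34.3 and 23.4 CPM in the controls and at 712 and 725 in the DAF-TM libraries. B cell markers summed to 10590 to 12530 CPM in the controls and to 11160 and 9621 in the DAF-TM libraries, and 0 of 8 passed the edgeR test. Of 10 germinal centre markers 0 passed as well, and their sums were 3895 to 4616 and 3611 to 3669. Natural killer cell markers summed to 32.9 to 51.1 CPM in the controls and to 129.8 and 79.0 in the DAF-TM libraries, with 7 of 10 higher. Of 12 T cell markers 2 were higher and of 12 macrophage markers 4, against 0.373% of all genes tested. The sums of both lists overlapped between the groups. T cell markers summed to 287 to 319 CPM in the controls and to 288 and 295 in the DAF-TM libraries. Macrophage markers summed to 94.5 to 153 CPM and to 176 and 116. No marker of these 2 lists was at 0 in all libraries. Neutrophil markers summed to 81.5 to 258 CPM in the controls and to 28.5 and 72.8 in the DAF-TM libraries, with 0 of 9 called. Dendritic cell markers summed to 86.5 to 92.1 CPM and to 109 and 93.6, with 1 of 9 higher. Plasma cell markers summed to 3572, 5650 and 4252 CPM in the controls and to 4609 and 3482 in the DAF-TM libraries. Of these 7 markers 1 was higher, and control library 2 had the highest sum. These lists were set with earlier results of the data known, and the part of such cells in the results below was not tested. Xist, which silences an X chromosome in female cells, stood at 758, 2.63 and 2.86 CPM in the controls and at 296 and 719 in the DAF-TM libraries, so sex differed between libraries within a group.

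SR proteins join RNA-recognition domains to a tail rich in arginine and serine, bind mostly to exons and help the spliceosome to find splice sites. HnRNP proteins coat nascent transcripts, and many of them repress exons or act on export and stability. RBM3 and CIRBP are small glycine-rich proteins whose transcripts rise in mildly cooled cells, and both bind transcripts and influence their polyadenylation, stability and translation. Many genes of these families also limit their own output through alternative exons that send the transcript to nonsense-mediated decay, the pathway that degrades messages with an early stop codon. In the GENCODE annotation of build GRCm38, 9 of the 11 SR genes, 8 of the 18 hnRNP genes and both cold-inducible genes had at least 1 transcript classed as a decay target. The share over the 31 genes was 61.3%, against 21.9% of 19032 protein-coding genes with counts. A retained-intron transcript was annotated for 22 of the 31 genes and for 45% of those 19032. The deposited counts are per gene symbol and do not separate such isoforms. The 31 genes lie on 16 chromosomes, 2 of them, Rbm3 and Hnrnph2, on the X.

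The mouse Cirbp promoter is known for a short element through which the factor SP1 acts on it in mild cold, TCCCCGCC. The RefSeq promoter of Cirbp (GRCm38.p6, chr10:80167589-80167888, plus strand, 250 bases before to 50 after a start site) is shown because Cirbp had the most negative fold change of the 31 genes. Capitals mark the element, which begins 247 bases before that start site, and a further promoter of the gene held no match.
Cirbp: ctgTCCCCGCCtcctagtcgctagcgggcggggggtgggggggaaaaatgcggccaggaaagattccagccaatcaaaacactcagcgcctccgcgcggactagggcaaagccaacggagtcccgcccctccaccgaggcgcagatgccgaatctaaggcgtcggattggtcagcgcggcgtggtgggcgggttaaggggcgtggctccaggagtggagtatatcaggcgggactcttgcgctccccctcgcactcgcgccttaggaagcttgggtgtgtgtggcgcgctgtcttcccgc
RefSeq held 42 promoters for 29 of the 31 genes. Rbm3 was not among these 29 genes, so its promoter was not searched. Motifs were searched on both strands. TCCCCGCC was found in 4 of these 42 promoters, each of another gene, and in 5.38% of all 32851 promoters of this length. The 3 further matches are shown 5′ to 3′ along the strand that carries the element, with 10 bases on either side, to set beside Cirbp genes whose groups overlapped. They lie at chr6:117917184-117917211 (plus strand), chr13:58128673-58128700 (plus strand) and chr17:80207332-80207359 (minus strand) of the same build.
Hnrnpf: tcagccctctTCCCCGCCctgagtcttc
Hnrnpa0: ggtcgcggccTCCCCGCCctccgcggtt
Srsf7: aaaaaaagaaTCCCCGCCcgccgcctat
GGGCGG, the letters of a GC box that can bind the same factor, was found in 35 of the 42 promoters and in 35.7% of all promoters. CCAAT was found in 22 of the 42 and in 37.4% of all promoters. These matches describe the sequences and show no binding.

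Rbm3 was the 1 member that passed the test, and it fell in the DAF-TM libraries. Rbm3 lies on chromosome X (8138975 to 8145880, GRCm38, minus strand). It stood at 171, 229.5 and 142 CPM in control libraries 1 to 3 and at 129.8 and 102 in DAF-TM libraries 1 and 2. Every DAF-TM value was below every control value, the gap between the groups was small beside the spread of the controls, and control library 2 was the highest. The means were 181 ± 44.7 CPM (SD, n = 3) and 116 ± 19.5 (SD, n = 2), a 1.56-fold lower level (log2 fold change -0.64, SE 0.17, edgeR adjusted p = 0.0427 over 18767 genes). Over all genes tested 0.0373% were called lower and 0.373% higher at this threshold, and 0.410% in either direction. In sorted cells measured in bulk, fewer cells that use a gene and less of its RNA per cell cannot be told apart.

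The call of Rbm3 was close to the threshold. It was lost without control library 1 (adjusted p = 0.302), control library 2 (0.40), DAF-TM library 1 (0.273) or DAF-TM library 2 (0.886), and held without control library 3 (0.0212). In the 4 fits that lost it the log2 fold changes were -0.68, -0.43, -0.83 and -0.48, so the difference itself was smaller in 2 of them and larger in the other two. The call was also lost with DESeq2 (0.318), limma-voom (0.0948), RLE factors (0.0679), upper-quartile factors (0.164) and cyclic loess (0.415), with log2 fold changes from -0.67 to -0.51. A fit without 1 DAF-TM library leaves a lone DAF-TM library, which is assumed to vary like the controls, here and below. Both libraries low in Xist were controls, and both DAF-TM libraries held Xist, so sex was partly tied to the groups, and its part in the difference of this X-linked gene was not tested.

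Cirbp, the paralog of Rbm3, was lower as well but did not pass. Cirbp lies on chromosome 10 (80165985 to 80172786, plus strand). It stood at 20.5, 57.2 and 26.0 CPM in the controls and at 19.6 and 16.1 in the DAF-TM libraries. The groups did not overlap, but control library 2 held more than the other libraries by a factor of at least 1.5, and the other controls came close to DAF-TM library 1. The means were 34.6 ± 19.8 (SD, n = 3) and 17.9 ± 2.48 (SD, n = 2), with a log2 fold change of -0.96 (SE 0.57, edgeR adjusted p = 0.945). Without control library 2 the log2 fold change was -0.38. Without control library 1 the fit gave -1.23 with an adjusted p of 3.63e-05, so the call of Cirbp depended on which libraries entered. Its adjusted p also varied with the processing of the same libraries. It was 0.0679 with RLE factors (log2 fold change -0.99) and 0.0526 without the low-count filter (-0.97). With upper-quartile factors it was 0.926, with cyclic loess 0.998, with DESeq2 0.955 and with limma-voom 0.903.

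**Figure D1:**
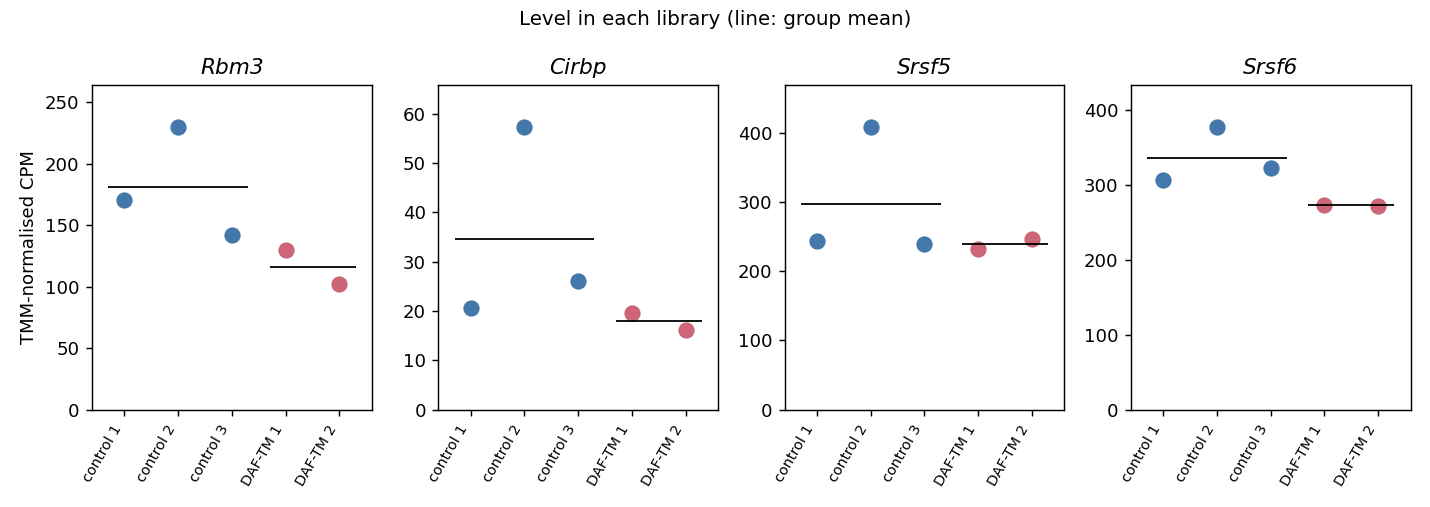
TMM-normalised CPM of Rbm3, Cirbp, Srsf5 and Srsf6 in each of the 5 libraries, with controls in blue, DAF-TM libraries in red and group means as lines. The DAF-TM points of Rbm3, Cirbp and Srsf6 lie below all control points, and control library 2 is the highest point in every panel.

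No SR protein gene passed the test between the groups. Of 11 SR genes 0 passed the edgeR test in either direction, 0 had an unadjusted p under 0.05, and DESeq2 and limma-voom called 0 as well. The log2 fold changes ran from -0.32 to 0.30 with a median of -0.08, beside 0.03 over all genes tested. The typical SE was 0.17 on the log2 scale, and in simulated data of this design 15 of 50 genes changed 1.5-fold were recovered, so changes of that size could often not be detected.

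The lowest values in this family belonged to Srsf5 and Srsf6, 2 SR proteins that bind purine-rich exonic enhancers. Srsf5 stood at 243, 408 and 239 CPM in the controls and at 232 and 246 in the DAF-TM libraries (log2 fold change -0.32, SE 0.17, edgeR adjusted p = 0.888). Control library 2 stood apart, and the other controls lay within the range of the DAF-TM libraries. Without control library 2 the log2 fold change of Srsf5 was -0.016. Srsf6 stood at 307, 377 and 323 CPM in the controls and at 273 in both DAF-TM libraries (log2 fold change -0.30, SE 0.17, edgeR adjusted p = 0.91). Its groups did not overlap, and the DAF-TM libraries differed by less than 1 CPM.

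Srsf1, an SR protein that shuttles between nucleus and cytoplasm and also acts in translation, stood at 748, 906 and 702 CPM in the controls and at 709.7 and 659 in the DAF-TM libraries. Its log2 fold change was -0.20 (SE 0.17), and the DAF-TM range reached the lowest control. Srsf2, which stays in the nucleus and also takes part in transcription elongation, stood at 632.5, 746 and 615 CPM and at 633 and 580.0. The groups overlapped, with a log2 fold change of -0.13. Srsf7, which like its close relative Srsf3 links splicing to export of messenger RNA, stood at 844, 909.9 and 715 CPM and at 892 and 786.5. Both DAF-TM values lay inside the control range (log2 fold change 0.03).

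At the upper end of the family, Srsf4 stood at 107, 92.6 and 114 CPM in the controls and at 121 and 104 in the DAF-TM libraries (log2 fold change 0.11, SE 0.17). Srsf9 stood at 132, 138 and 137 CPM and at 147 and 122, so the DAF-TM libraries lay on either side of the controls (log2 fold change -0.015). Srsf12, the scarcest SR gene, stood at 1.48, 1.95 and 1.498 CPM and at 1.80 and 2.28, on 11 to 27 counts a library (log2 fold change 0.30, SE 0.50). Its value is too imprecise to show a difference. The 3 other SR genes, Srsf3, Srsf10 and Srsf11, had overlapping groups.

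No hnRNP gene passed either: 0 of 18 were called by edgeR, 0 had an unadjusted p under 0.05, and DESeq2 and limma-voom called 0. The log2 fold changes ran from -0.23 to 0.12 with a median of -0.09, and all 18 genes had overlapping groups. The most abundant per length were Hnrnpa2b1, which binds transcripts and guides their splicing and transport, Hnrnpk, a protein with KH domains that binds C-rich RNA and DNA, and Hnrnpab.

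Per kilobase of annotated exon, control means were 369.7 CPM for Hnrnpa2b1, 269.6 for Hnrnpk and 259 for Hnrnpab, ahead of 232 for Srsf7 and 225 for Srsf2. This order depended in part on the length used. Per kilobase of the longest coding transcript, Hnrnpab stood at 303.6, below 349.9 for Srsf2 and 342.5 for Srsf7. Hnrnpa2b1 stood at 2458, 2766 and 2077 CPM in the controls and at 2415 and 2003 in the DAF-TM libraries (log2 fold change -0.14, SE 0.16). Hnrnpk stood at 1684, 1984 and 1560.0 CPM and at 1591 and 1378 (log2 fold change -0.23, SE 0.17, edgeR adjusted p = 0.945), which was the lowest fold change of this family. DAF-TM library 1 lay within the control range for both genes, and DAF-TM library 2 lay below it. Hnrnpab, an RNA-binding protein that also binds DNA, stood at 691, 776 and 692 CPM and at 721 and 614.5 (log2 fold change -0.11), with the same placing of the libraries.

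Hnrnph2, an X-linked member that binds G-rich runs, stood at 173, 184 and 159 CPM in the controls and at 176 and 119.6 in the DAF-TM libraries (log2 fold change -0.22, SE 0.17). DAF-TM library 2 was the lowest of the 5, and DAF-TM library 1 lay within the controls. Hnrnpr, a relative of the translation regulator Syncrip, stood at 152, 164 and 144 CPM and at 149 and 122 (log2 fold change -0.18), again with DAF-TM library 2 lowest and DAF-TM library 1 within the controls. Hnrnpa3 stood at 25.5, 41.2 and 26.3 CPM and at 24.8 and 29.3 (log2 fold change -0.20), where control library 2 stood above the other 4.

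Among the higher values, Hnrnpd, also known as AUF1, which binds AU-rich elements and speeds the decay of messages that carry them, stood at 197, 210.2 and 178 CPM in the controls and at 232 and 169 in the DAF-TM libraries (log2 fold change 0.04). The DAF-TM libraries lay on either side of the controls. Hnrnpl, which binds CA repeats and represses exons of the CD45 gene Ptprc, stood at 330.4, 272 and 308 CPM and at 329 and 306 (log2 fold change 0.06). Both DAF-TM values lay inside the control range. Hnrnpa0, an intronless member of the A group, stood at 30.2, 21.3 and 32.1 CPM and at 26.9 and 31.8, also inside it (log2 fold change 0.08).

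**Figure D2:**
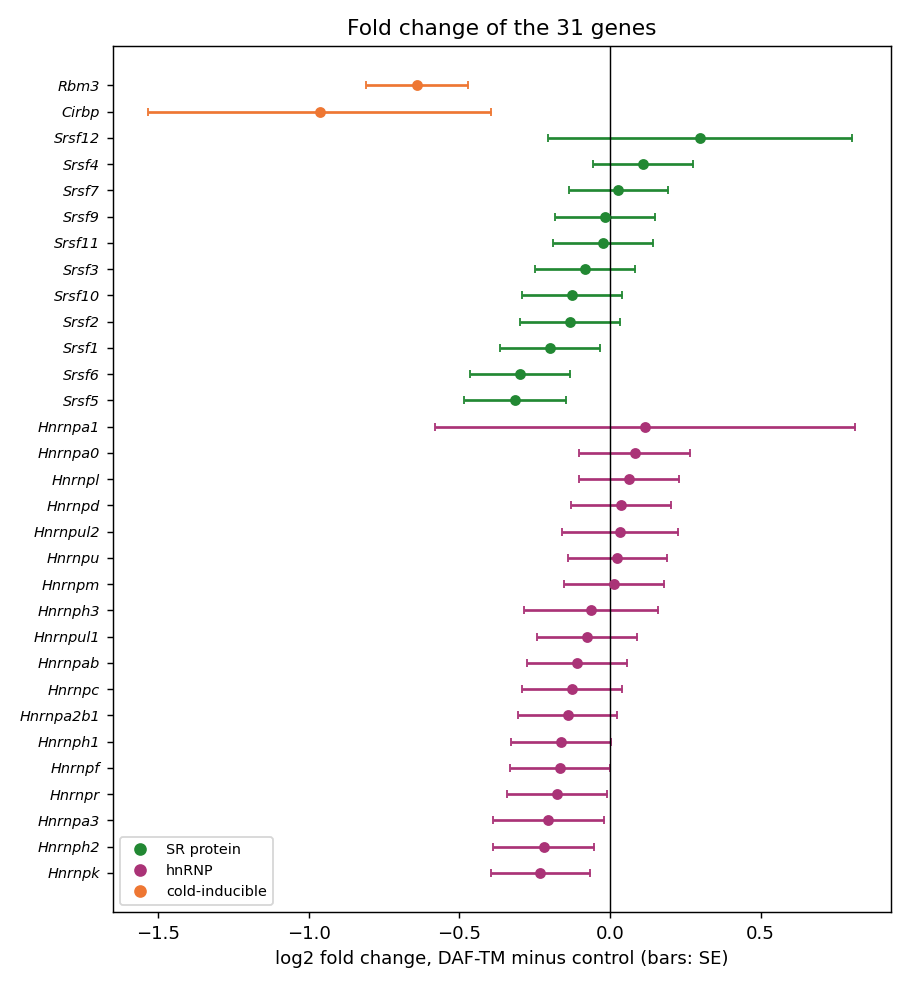
Log2 fold change of DAF-TM minus control libraries for the 31 genes, by family, with bars of 1 SE from the edgeR fit. Rbm3 and Cirbp lie at -0.64 and -0.96, while the SR and hnRNP genes lie between -0.32 and 0.30.

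Hnrnpa1, one of the best known hnRNP proteins and a repressor of exon inclusion, was almost absent from the table. Its counts were 11, 8 and 5 in control libraries 1 to 3, against 9 and 12 in DAF-TM libraries 1 and 2, or 0.68 to 1.16 CPM in all 5 libraries. It was the lowest of the 31 genes per kilobase, at 0.267 CPM. No direction can be read from these counts (log2 fold change 0.12, SE 0.70). How reads that match several genes were treated is not given in the sources used here. Of the 100-base windows of its longest coding transcript that lie in the coding sequence, 75% also occur in transcripts of other annotated genes. Over the whole transcript these were 11 genes, all of them pseudogenes. For Rbm3, the coding window that begins at its start codon is shown because it was also found in 2 pseudogenes. It lies at chrX:8144958-8145057 (GRCm38, minus strand, within 1 coding exon) and is in lower case throughout, since all 100 bases match.
Rbm3: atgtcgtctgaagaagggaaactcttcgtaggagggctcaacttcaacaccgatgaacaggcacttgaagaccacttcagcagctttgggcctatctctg

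Windows shared with other annotated genes, pseudogenes or not, were found in many genes of the 2 families but did not go with a low level throughout. Their share over all genes was not computed. Srsf4, Hnrnpab and Srsf2 shared windows with no pseudogene. Annotated exons on the opposite strand overlapped 43%, 29.1% and 25.3% of their exon length. In Hnrnpa3 100% of the coding windows were shared, with up to 16 genes for 1 window, and its control mean was 5.75 CPM per kilobase. In Hnrnpf 87.1% of windows were shared, and in Srsf3 75.3%, yet these stood at 122 and 86.4 CPM per kilobase. Rbm3 shared 62.8% of its coding windows and Hnrnpk 56.1%. Over whole transcripts 10 of the 31 genes, Cirbp among them, shared no window with another gene, and across the 31 genes Spearman's rho between level per kilobase and the share over whole transcripts was 0.04. Genes are not independent replicates, and matches on either strand were counted. The counts of genes with shared windows are therefore uncertain, those of Rbm3 among them, and the part of shared reads in its difference was not tested.

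**Figure D3:**
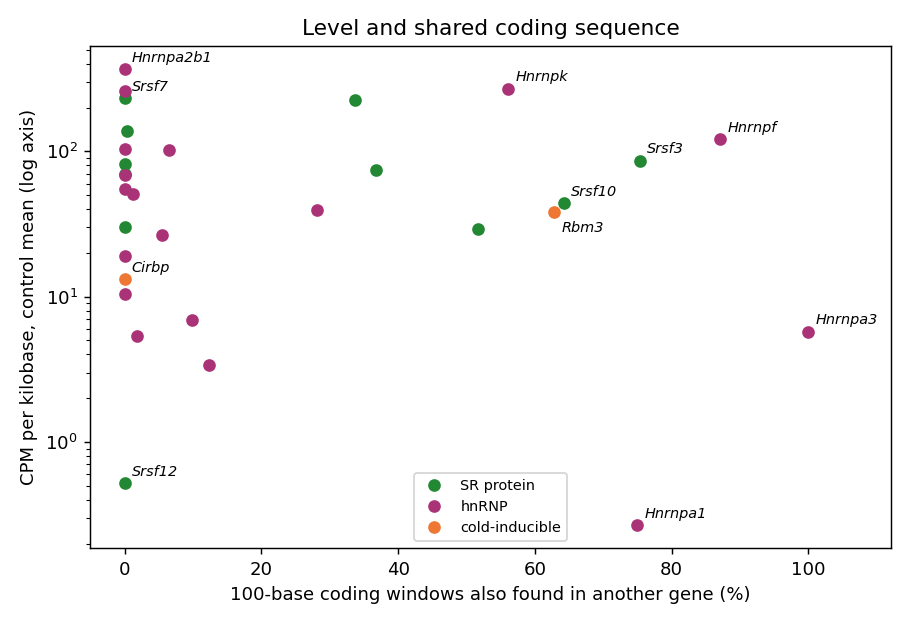
Control mean level (CPM per kilobase of exon, log axis) against the percentage of 100-base coding windows found in another annotated gene, 1 point per gene, coloured by family. Hnrnpa1 is the lowest point, at 75% shared, and Srsf12 lies next above it with no shared window, while Hnrnpf, Srsf3 and Hnrnpk have high levels with 56.1% to 87.1% shared.

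Read against the whole table, the 31 genes did not stand out by the separation of the groups. The groups did not overlap, with DAF-TM lower, in 3 of the 31 genes (Rbm3, Cirbp and Srsf6), against 9.02% of all genes tested. That share, 9.68%, was close to the background. In 0 of the 31 genes were both DAF-TM libraries above all controls, against 11.3% of all genes. An unadjusted p under 0.05 was found for 1 of the 31, against 5.74% of all genes.

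The 2 DAF-TM libraries placed the 31 genes differently. In DAF-TM library 2, 26 of the 31 genes lay below the control mean, against 45.7% of all genes tested, with a median log2 difference of -0.22 beside 0.06 over all genes. In DAF-TM library 1, 14 of the 31 lay below it, against 49.97% of all genes, with a median of 0.02 beside 0.00. The other splicing lists described below were placed alike. Their medians ran from -0.215 to -0.095 in DAF-TM library 2 and from -0.034 to 0.044 in DAF-TM library 1. The lower placing in library 2 was thus not particular to the 31 genes. Rbm3 and Cirbp were below the control mean in both DAF-TM libraries. They lay at -0.45 and -0.67 in library 1 and at -0.79 and -0.95 in library 2. With cyclic loess normalisation, which removes trends with expression level between libraries, the median fold change of the 31 genes was 0.03 in place of -0.11, while Rbm3 and Cirbp stood at -0.51 and -0.87, neither of them called.

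Among the controls, library 2 held more of these transcripts than the others. It was the highest of the 3 controls for 23 of the 31 genes, against 37.2% of all genes tested, and its median log2 difference from controls 1 and 3 was 0.23, beside -0.004 over all genes. The difference was largest for Cirbp (log2 difference 1.31), Srsf5 (0.76), Hnrnpa3 (0.67) and Rbm3 (0.56), and it was negative for 7 of the 31 genes, the lowest of them Hnrnpa0 (-0.55) and Hnrnpa1 (-0.405). Cirbp and Srsf5 stood at least 1.5-fold above all 4 other libraries in control library 2, as did 0.618% of all genes. This bound was chosen after the values were seen, and 1 library allows no test. The median log2 difference of control library 2 was also positive in the other splicing lists below. It was 0.181 for SR-related proteins and SR kinases, 0.121 for other regulators, 0.075 for the core spliceosome and 0.072 for nonsense-mediated decay. Control library 2 had the lowest TMM factor (0.9225) and DAF-TM library 2 the highest (1.108). Before these factors the 31 genes held 1.30%, 1.37% and 1.24% of control counts, and 1.32% and 1.26% of DAF-TM counts.

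**Figure D4:**
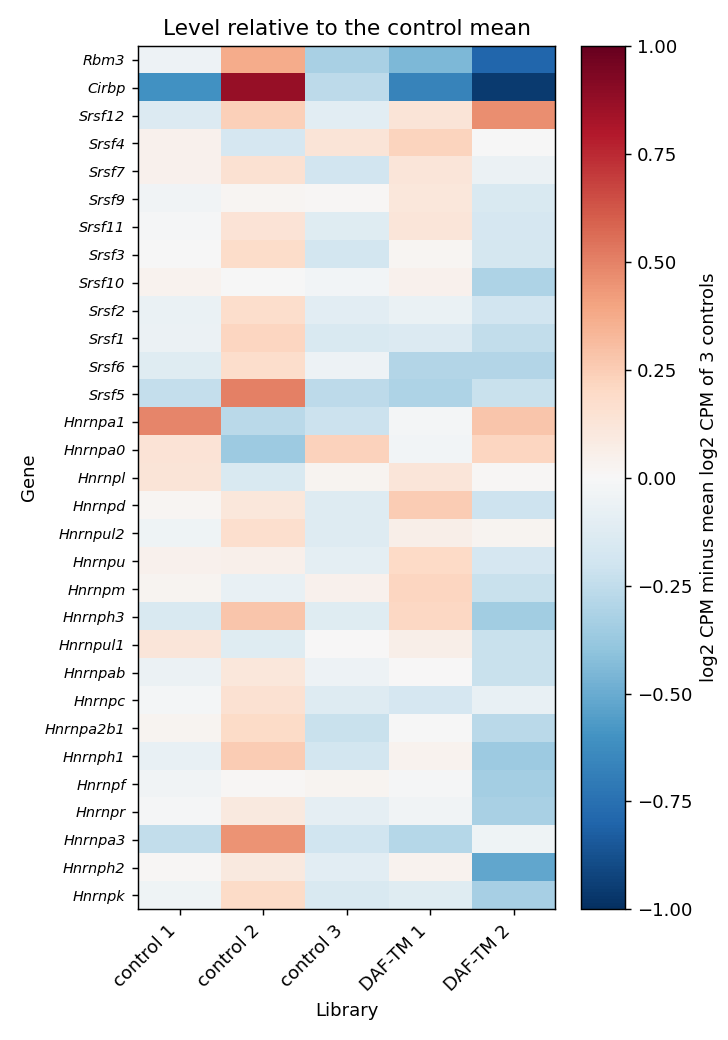
Log2 CPM of each of the 31 genes in each library minus the mean of the 3 controls, from blue (lower) to red (higher). Control library 2 is red for most rows, most of all Cirbp, which lies just below Rbm3 at the top. DAF-TM library 2 is blue for 26 of the 31 genes.

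The wider splicing machinery showed few calls. Of 30 SR-related proteins and SR kinases, such as the TRA2 proteins and the CLK kinases that phosphorylate arginine-serine tails, 0 passed in edgeR, 0 had an unadjusted p under 0.05, and the median log2 fold change was -0.015. The lowest p belonged to Tnpo3, the importin of SR proteins (log2 fold change -0.21, SE 0.17), and to Thrap3, an arginine-serine rich protein (-0.20, SE 0.17). Of 51 other splicing regulators 0 passed in edgeR, with a median of -0.05. An unadjusted p under 0.05 was found for 5 of the 51, against 5.74% of all genes. Both DAF-TM libraries lay below all controls in 8, or 15.7%, against 9.02% of all genes, and above them in 2, or 3.92%, against 11.3%. Ptbp3, a polypyrimidine-tract repressor, stood at 809, 880.1 and 743 CPM in the controls and at 663 and 534 in the DAF-TM libraries (log2 fold change -0.44, SE 0.17, edgeR adjusted p = 0.567). Its groups did not overlap. Mbnl1, a muscleblind splicing regulator, had overlapping groups (log2 fold change -0.385, adjusted p = 0.767). The other 3 with an unadjusted p under 0.05, named after their values were seen, were Mbnl3 (-0.37), Ptbp2 (-0.37) and Pspc1 (-0.34). DESeq2 and limma-voom called 0 genes in both lists.

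Hnrpdl, the gene of hnRNP D-like protein under its older symbol and so outside the symbol rule, was singled out after its values were seen. It stood at 173, 274 and 179 CPM in the controls and at 172.5 and 175 in the DAF-TM libraries, the same pattern as Srsf5, with control library 2 above 4 near-level libraries.

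Of 63 core spliceosome genes 1 rose and none fell in edgeR, against 0.373% of all genes called higher, and DESeq2 and limma-voom called 0. The median was -0.08, and 3 genes had an unadjusted p under 0.05, against 5.74% of all genes. In 12 of the 63, or 19.0%, both DAF-TM libraries lay below all controls, against 9.02% of all genes. Ddx23, the RNA helicase of the U5 particle known as PRP28, rose from 9.52, 10.1 and 7.36 CPM in the controls to 24.9 and 11.1 in the DAF-TM libraries (log2 fold change 0.99, SE 0.24, edgeR adjusted p = 0.0181). This rise rested on DAF-TM library 1, without which the log2 fold change was 0.29 (adjusted p = 0.724). The call was also lost without control library 1 (0.109) or 3 (0.385), and with DESeq2 (0.446), limma-voom (0.32), upper-quartile factors (0.17) and cyclic loess (0.998). The 2 further genes with an unadjusted p under 0.05, named after their values were seen, were lower: Prpf19, an ubiquitin ligase of the spliceosome (log2 fold change -0.45, edgeR adjusted p = 0.541), and Snrpd3, an Sm ring protein (-0.44, adjusted p = 0.552). Of 20 genes of nonsense-mediated decay and its partners 0 passed in edgeR, 0 had an unadjusted p under 0.05, DESeq2 and limma-voom called 0, and the median was -0.07. The lowest p belonged to Etf1, the termination factor eRF1 (log2 fold change -0.30, SE 0.17), and Pnrc2, a decapping partner (-0.29, SE 0.17).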

How the data were processed

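Counts per gene symbol, as the authors deposited them, were whole numbers without normalization, on mm10 per the file header. The submitters' processing notes name bcl2fastq, HISAT2 and featureCounts. Versions, annotation and strand setting are not stated, so values of paralogs, pseudogene parents and overlapping genes are uncertain. Libraries were made by oligo-dT priming of 10 ng of RNA without molecular identifiers, per the labels' protocols.

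Columns were matched to samples by name. The edgeR 4.0.16 fit (R 4.3.3) used TMM factors, filterByExpr, robust glmQLFit and glmQLFTest (two-sided), with p-values adjusted by Benjamini-Hochberg across all 18767 genes, a threshold of 0.05 and 3 residual degrees of freedom. The SE was nearly the same for genes of unlike spread, at 0.166 for Srsf10, 0.17 for Rbm3 and 0.169 for Srsf5. Their control SDs were 2.42%, 24.8% and 32.4% of the mean. The SE thus largely reflected a spread shared across genes, except for Cirbp (SE 0.569, control SD 57.25% of the mean). Alternatives used limma 3.58.1 and DESeq2 1.42.0. Log2 differences of single libraries used a pseudocount of 0.5. On simulated data 10 of 159 calls were false. Gene models came from GENCODE vM21 and promoters from RefSeq, both GRCm38.

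The members, lists and tests were chosen with earlier results of these data known. Genes described in full were Rbm3, Cirbp, members past the threshold, the 4 highest and 4 lowest fold changes and the 3 most abundant per length of each family, and the called or lowest-p genes of each list. Genes of most alike pattern are not given, since 5 libraries are too few for a correlation.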

Additional observations from a re-analysis of the deposited data

How the results depend on the processing

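The 31 genes held 1 call in the edgeR fit, 0 calls with RLE factors, upper-quartile factors, cyclic loess, DESeq2 or limma-voom, and 0 to 1 when single libraries were left out. Rbm3 stayed negative throughout, at -0.67 with RLE factors (adjusted p = 0.0679), -0.57 with upper-quartile factors (0.164), -0.51 with cyclic loess (0.415), -0.67 with DESeq2 (0.318) and -0.625 with limma-voom (0.0948). It ran from -0.83 to -0.43 when single libraries were left out, and adjusted p over all alternatives ran from 0.0212 to 0.886. Cirbp ran from -1.23 to -0.38 without single libraries. The median over the 31 genes was 0.026 with cyclic loess and ran from -0.23 to 0.011 without single libraries. Calls among core spliceosome genes fell from 1 to 0 with upper-quartile factors, cyclic loess, DESeq2 and limma-voom and were 0 to 1 without single libraries, as were calls among the other splicing regulators. The causes were not tested.

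Replicate numbers do not pair the libraries by the labels. The deviations of same-numbered libraries correlated at -0.147 for number 1 and at -0.26 for number 2. The correlation was 0.12 for number 3 where the copied column takes that number. With 2 DAF-TM libraries their deviations mirror each other, so these values cannot show whether the numbers pair libraries. In a fit with the replicate number as a block, a control whose number no DAF-TM library shares adds nothing to the group difference. That was control library 3 with the copied column as replicate 2, and control library 2 with it as replicate 3. Fewer residual degrees of freedom were left than in the main fit. Rbm3 stood at -0.78 and -0.43 in these fits, beside -0.77 and -0.43 without those controls, and so largely repeated the latter values. With the copied column as replicate 2, 2 of the 31 genes were called lower, Rbm3 and Cirbp (-0.97, adjusted p = 0.0073). The other regulators then had 1 call and core spliceosome genes 0. With the block and the copied column as replicate 3, 0 of the 31 were called, Rbm3 stood at -0.43 (adjusted p = 0.209), and the other regulators had 1 call. In that block fit Hnrnpa1 (-0.016), Hnrnpa0 (-0.091), Hnrnpl (-0.009) and Hnrnpa3 (0.057) changed sign, and in the former Srsf7 (-0.065) and Hnrnpd (-0.042).

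Small values of single genes changed sign in further fits, none of them past the threshold. With upper-quartile factors this was Srsf9 (0.052). With cyclic loess these were Srsf9 (0.104), Srsf2 (0.04), Hnrnpa1 (-0.112), Hnrnpa2b1 (0.057) and Hnrnpab (0.062). When single libraries were left out, Srsf4 from -0.013 to 0.217, Srsf7 from -0.072 to 0.116, Srsf9 from -0.161 to 0.112, Hnrnpa1 from -0.054 to 0.258, Hnrnpa0 from -0.087 to 0.21, Hnrnpl from -0.012 to 0.131, Hnrnpd from -0.217 to 0.246, Hnrnph2 from -0.531 to 0.031, Hnrnpa3 from -0.332 to 0.062 and Hnrnpab from -0.235 to 0.002 ran across 0. Over all genes the 77 calls (70 higher, 7 lower) became 39 with upper-quartile factors, 21 with cyclic loess, 32 with DESeq2, 49 with limma-voom, 61 and 105 with the 2 blocks, and 14 to 118 without single libraries.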
